A study of Mus musculus with 79 samples.

Results

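Polycomb domains away from gene starts are autosomal stretches of the mouse genome that carried H3K27me3 in the +/+ hypothalamus without a gene start of the expression table inside them or within 2 kb. They were taken as runs of at least 3 consecutive tiles of 2 kb, set every 1 kb, in which every tile had a mean H3K27me3 of 3 or more and a mean input of 1.5 or less over the 3 +/+ libraries. Values are reads in a tile per 1000000 uniquely mapped reads (RPM). By this rule 946 of 2118 autosomal runs were members, and the other 1172 had a gene start inside or within 2 kb. The members were thus chosen by their +/+ H3K27me3 and input values, which are given as a description without a test.

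The study compared the hypothalamus, collected at about 14 weeks of age, of +/+ mice with that of Δ/D329A mice. The gene concerned, Dnmt3a, encodes a de novo DNA methyltransferase. In Δ/D329A the maternal allele, written first, is the deletion Δ made by Cre recombination in the oocyte, and the paternal allele carries the D329A point mutation of the PWWP domain, so that D329A is the only functional copy. Effects of D329A and of carrying a single functional copy cannot be told apart here. Each ChIP library was made from chromatin of 1 hypothalamus digested with micrococcal nuclease and not crosslinked, with 3 +/+ and 3 Δ/D329A libraries each for H3K27me3, H3K4me3, H3K36me3 and input. The RNA-seq table held 5 +/+ and 4 Δ/D329A libraries. A supplementary legend of the paper describes the RNA-seq animals as female. A main legend describes both the ChIP-seq and the expression data shown there as male. RNA and ChIP values set side by side below may thus come from animals of different sex, and the part of sex in the results was not tested. A whole hypothalamus mixes many neurons and glia, so that fewer cells with a mark and less mark per cell cannot be told apart. The depth was lowest in H3K4me3, at 12676361 to 15944966 uniquely mapped reads, and reached 26178088 in H3K27me3, 22850001 in H3K36me3 and 30207875 in input, while 3873619 to 9975423 reads fell on genes in RNA-seq. A member held a median of 115.5 to 190 reads in an H3K27me3 library, but only 7.5 to 21 in an H3K4me3 library and 19 to 23.5 in an H3K36me3 library, which limits what could be seen in a single member.

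H3K27me3 is written by Polycomb repressive complex 2 and marks genes that are kept silent, among them many regulators of embryonic patterning. Polycomb complexes gather on CpG islands, which are mostly gene promoters, but the mark also covers distal elements, unannotated promoters and the flanks of silent loci. H3K4me3 marks CpG-rich promoters and can share a domain with H3K27me3, a state called bivalent, whereas H3K36me3 covers the bodies of transcribed genes and is bound by the PWWP domain of DNMT3A.

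The letters below show the range of sequence that the domains rest on. For 6 members the 250 bases with the most CpG sites are printed on the plus strand of GRCm38, with each CpG in capitals. The first belongs to the longest member, the second to the member whose H3K4me3 was called higher in Δ/D329A, the third and the fourth to members without an annotated start that had, in order, the largest called fall and the highest +/+ level of H3K4me3, the fifth to the longest member next to Six3, and the last to the member highest in +/+ H3K36me3 among those with neither a CpG-rich window nor a start. GENCODE M21 has no exon in any of these windows. The second lies in an intron of Clybl and the last inside the gene model Gm5373, and the other 4 are intergenic.
Pax2, chr19:44684206-44684455: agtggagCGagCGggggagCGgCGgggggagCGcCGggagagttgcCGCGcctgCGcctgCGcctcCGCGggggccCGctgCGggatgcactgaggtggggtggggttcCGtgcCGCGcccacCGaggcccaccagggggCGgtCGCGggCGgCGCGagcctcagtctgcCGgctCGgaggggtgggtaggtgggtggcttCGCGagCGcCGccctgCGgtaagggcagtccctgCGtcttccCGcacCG
Clybl, chr14:122227211-122227460: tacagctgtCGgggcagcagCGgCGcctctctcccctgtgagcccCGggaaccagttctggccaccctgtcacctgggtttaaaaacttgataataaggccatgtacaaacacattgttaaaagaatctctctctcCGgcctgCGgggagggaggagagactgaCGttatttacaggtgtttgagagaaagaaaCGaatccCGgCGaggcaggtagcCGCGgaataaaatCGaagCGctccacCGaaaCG
Hmga2, chr10:120552548-120552797: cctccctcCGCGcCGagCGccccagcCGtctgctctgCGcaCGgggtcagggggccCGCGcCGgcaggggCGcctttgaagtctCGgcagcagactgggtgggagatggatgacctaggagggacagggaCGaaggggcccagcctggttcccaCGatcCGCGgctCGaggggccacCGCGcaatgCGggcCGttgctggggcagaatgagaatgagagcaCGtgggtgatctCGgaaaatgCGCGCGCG
Pou3f2, chr4:22498175-22498424: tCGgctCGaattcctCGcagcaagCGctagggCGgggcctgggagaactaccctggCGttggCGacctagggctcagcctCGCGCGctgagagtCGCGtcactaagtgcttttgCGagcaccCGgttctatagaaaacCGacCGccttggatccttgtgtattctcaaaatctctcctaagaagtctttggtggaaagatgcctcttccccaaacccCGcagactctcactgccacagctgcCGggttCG
Six3, chr17:85486577-85486826: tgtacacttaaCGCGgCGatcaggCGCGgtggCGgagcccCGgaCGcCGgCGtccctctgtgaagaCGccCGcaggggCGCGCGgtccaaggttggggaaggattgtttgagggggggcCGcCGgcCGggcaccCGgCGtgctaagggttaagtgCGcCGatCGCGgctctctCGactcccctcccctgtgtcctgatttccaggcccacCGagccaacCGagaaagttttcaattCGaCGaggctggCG
Zfp709, chr8:71838118-71838367: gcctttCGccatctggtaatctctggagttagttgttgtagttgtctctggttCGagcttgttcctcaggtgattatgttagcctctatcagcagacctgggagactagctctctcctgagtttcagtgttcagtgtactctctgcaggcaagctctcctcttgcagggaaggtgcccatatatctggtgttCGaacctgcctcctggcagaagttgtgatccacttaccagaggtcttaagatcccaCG
These windows held 34, 16, 27, 19, 30 and 4 CpG sites in the order printed. The window next to Six3 had a ratio of observed to expected CpG of 1.07, and the one next to Zfp709 had 0.256, so that a member need not be CpG-rich. The densest window of a member held a median of 11 CpG sites, between 2 and 47, against a median of 28 in the runs at gene starts.

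Most members were short. Their median length was 5 kb, 356 of 946 were at the minimum of 3 tiles, 76 had 10 or more tiles and 13 had 20 or more. Mean +/+ H3K27me3 of a member ranged from 3.05 to 7.37 RPM with a median of 3.65, and the runs at gene starts had a median of 4.17. The lowest tile inside a member and the highest tile next to one both rounded to 3.0 RPM, the tiles next to members had a median of 2.62, and 642 stretches of 2 tiles away from gene starts were not kept. Many domains thus sat close to the threshold, and the number of members rose to 1999 at a threshold of 2.5 RPM and fell to 295 at 4 RPM.

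**Figure D1:**
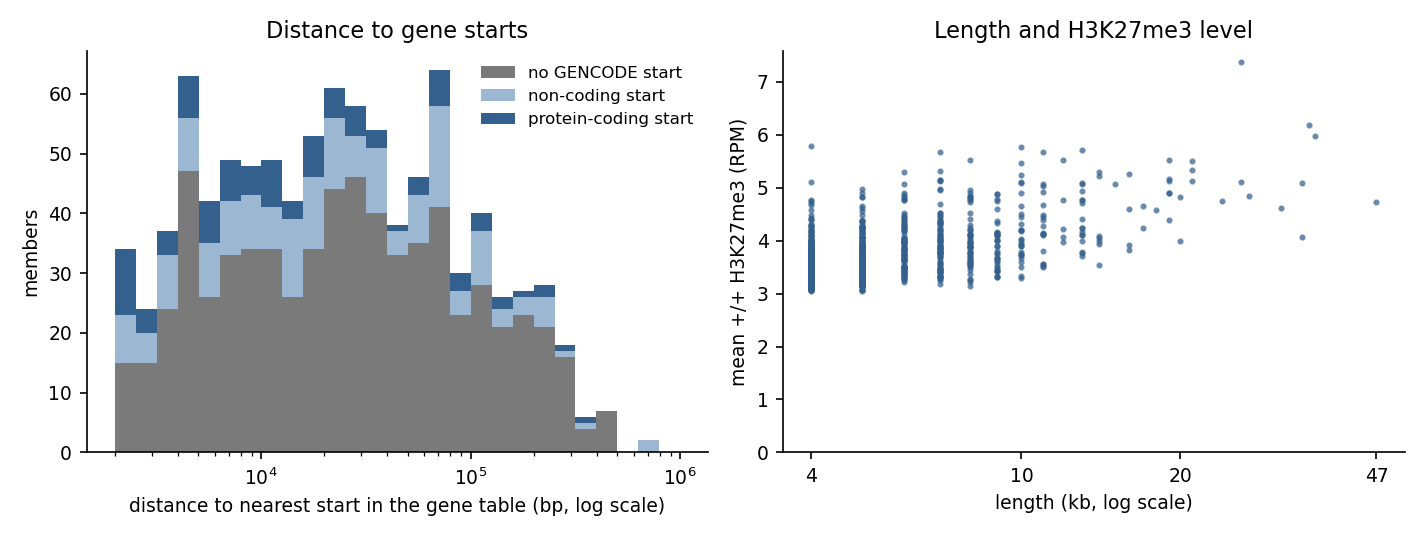
Left, number of members by distance (bp, log scale) to the nearest start of the gene table, stacked by the kind of GENCODE M21 start within 2 kb. Right, length (kb, log scale) against mean +/+ H3K27me3 (RPM) for each of the 946 members. The median distance was 22 kb, and the longest member, at 47 kb, was not the one with the most H3K27me3.

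The distance to the nearest start had a median of 22034 bp and ran from 2005 to 696777 bp, and 154 members (16.3%) were over 100 kb away. The 2 farthest members lay 697 kb from Galr1, a galanin receptor, and 657 kb from Sall3, a zinc finger factor. A member at 467 kb from Zfhx3, chr8:108243001-108248000, had no annotated start but H3K4me3 of 3.15, 3.46 and 4.93 RPM in +/+ and 1.99, 6.21 and 5.78 in Δ/D329A. As many as 351 members lay within 50 kb of a run at a gene start, and 159 within 10 kb, so that part of the set lies near a gene start with H3K27me3. By bases, 61.5% of the members were intergenic, 32.6% intronic and 5.90% exonic, compared with 52.8%, 42.2% and 4.96% of the autosomes. In all, 479 members were wholly intergenic and 275 overlapped the body of a gene of the table. Soft-masked repeats made up a median of 20.2% of a member's bases and 33.5% of the autosomes.

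The gene table does not hold every start. GENCODE M21 placed a protein-coding transcript start inside or within 2 kb of 99 members, mostly second promoters of genes that the table starts elsewhere, such as those of Notch1, Esr1, Zfhx3, Wnt5a and Mecom. A further 177 members had only a non-coding start and 670 (70.8%) had none. The ends of a member, from which starts were sought, were set by +/+ H3K27me3, so these classes are not independent of it. The classes differed in sequence. The tile with the most H3K27me3 held a median of 2.35 CpG per 100 bases with a protein-coding start, 1.55 with a non-coding start and 1.35 with none, against 2.45 in the runs at gene starts and 0.700 in tiles outside runs. A window of 200 bases with a GC content of at least 0.5 and an observed to expected CpG of at least 0.6 lay in that tile for 44.9% of members, 72.4% of runs at gene starts and 11.1% of other tiles.

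Many members had a gene for a transcription factor of early development as the nearest gene. A gene of a list of developmental regulators, mostly homeobox, Sox, Fox, Pax and basic helix-loop-helix factors, was the nearest gene of 165 members (17.4%), while 1.32% of the autosomal genes of the table belong to the list. The share was 14.2% for the runs at gene starts and 24.5% for the 294 members over 50 kb from a start. Genes in long intergenic stretches have more sequence that can count as theirs, and these shares were not tested. Secreted signals of the Wnt, Fgf, Bmp and related families were nearest to 12 members (1.27%), compared with 29 runs at gene starts (2.47%).

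Several genes had a series of domains. Nr2f2, a nuclear receptor of forebrain and vascular development, was nearest to 7 members between 20735 and 246735 bp from its start, Barhl2, a homeobox factor of diencephalic and retinal neurons, to 6, and Otx2, Pax3, Sox14, Msx1 and Tfap2c to 4 each. By the nearest gene of the table, such series were not limited to genes of the list. Prok2 had 7 members, Gm20484, Mgmt and Rybp 6 each, and 4921513I03Rik, Skap1, Hmga2, Med13l, Gm12158 and Gm12829 5 each. The nearest gene need not be the one that a domain belongs to, which was not tested. For the longest Gm20484 member the nearest protein-coding start of GENCODE M21 was that of Nkx6-1, a homeobox factor, at 114996 bp. With members less than 50 kb apart joined, 671 groups resulted, of which 517 held a single member and 64 held 3 or more. The largest, chr6:99842001-100089000, lay between Prok2, a secreted neuropeptide, and Rybp, a subunit of Polycomb repressive complex 1, and held 13 members that added up to 72 kb within 247 kb. The next, chr10:120237001-120467000 near Hmga2 and Llph, held 8 members within 230 kb. Hmga2 encodes a chromatin protein of proliferating embryonic cells.

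The longest member, chr19:44653001-44700000, covered 47 kb at 56 kb from the start of Pax2, a paired box factor of the midbrain, hindbrain and kidney. Its H3K27me3 was 4.34, 4.64 and 5.23 RPM in the 3 +/+ libraries and 4.49, 4.43 and 4.85 in the 3 Δ/D329A libraries, so that the genotypes overlapped. A member of 36 kb at chr5:67201001-67237000, with Tmem33 as the nearest gene, had 5.76, 6.06 and 6.10 against 4.05, 4.89 and 4.60, without overlap. Likewise the member chr6:51167001-51202000, at 231 kb from Nfe2l3, had 6.41, 5.81 and 6.34 against 5.02, 5.16 and 4.95. The 31 kb member next to En2, a midbrain homeobox factor, spanned a start of Cnpy1 and had 4.86, 4.33 and 4.66 against 3.73, 4.0 and 4.15. Members were chosen for a high +/+ level, which favours such falls, so these values are a description only. All 3 Δ/D329A libraries lay under all 3 +/+ libraries in 171 members (18.1%), and over them in 25 (2.64%). The choice of members favours the first of these counts, and no share over all runs is set beside them. In the 975 runs away from gene starts that were found on all 6 libraries, described below, the median log2 difference was -0.0044.

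The highest level, 7.37 RPM on average, was found at chr3:96320001-96346000, within 26 kb of Fcgr1. This member had 6.38, 6.35 and 9.38 RPM in +/+ and 4.81, 7.76 and 7.52 in Δ/D329A. The 3 high libraries are those with a mean mitochondrial coverage of 18.1 to 36.8 RPM, whereas the 3 low ones had 4.07 to 10.3, and the part of this difference between libraries in the result was not tested.

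**Figure D2:**
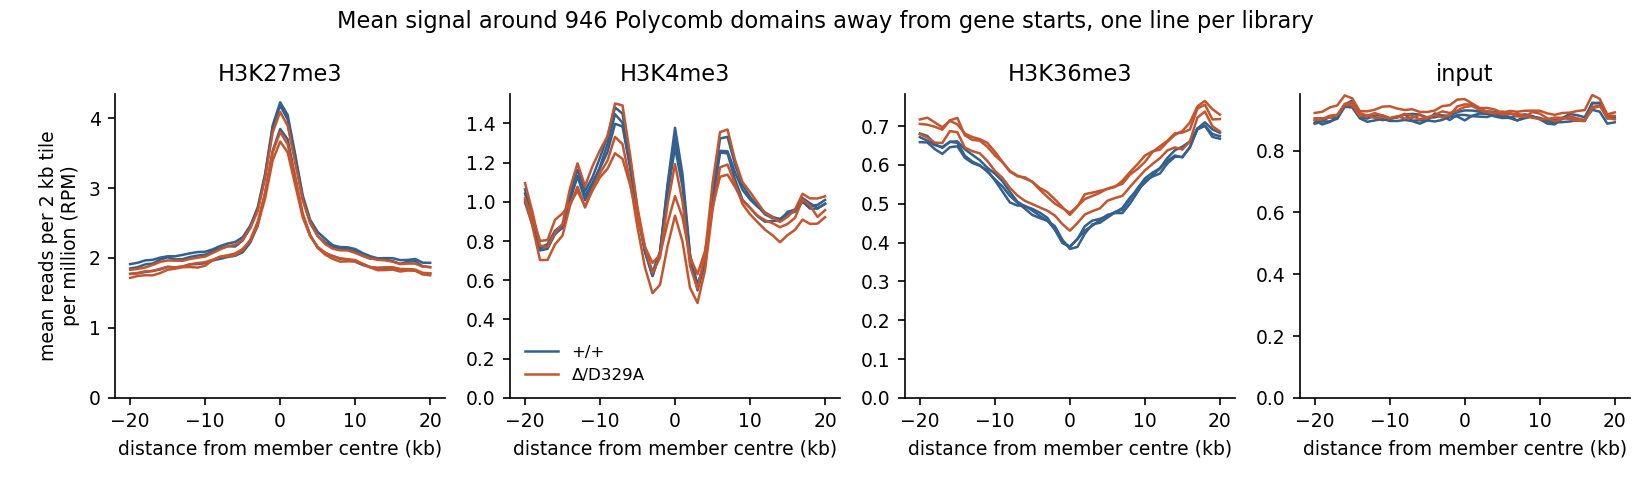
Mean signal of all 946 members by distance from the member's centre (kb), with 1 line for each of the 3 +/+ (blue) and 3 Δ/D329A (orange) libraries and a panel for each mark and for input (reads per 2 kb tile, RPM). H3K27me3 peaked at 3.67 to 4.23 RPM by construction, H3K36me3 had its minimum at the centre and input was flat.

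H3K4me3 was lower in the members than in the runs at gene starts. The sets were split by gene starts and this mark lies at promoters, so this direction was favoured in advance. The test below shows only how steady the difference was over animals. The median member had 0.320, 0.355 and 0.294 RPM in the 3 +/+ libraries and 0.502, 0.237 and 0.226 in the 3 Δ/D329A libraries. The median run at a gene start had 1.86 to 2.08 RPM in +/+ and 1.21 to 1.63 in Δ/D329A, above the members in every library. On the log2 scale members were lower by 2.41 on average, with an SD of 0.49 over 6 animals (log2 difference -2.41, ranging from -2.79 to -1.47, two-sided exact sign permutation test p = 0.031, the smallest that 6 animals allow). With means in place of medians over runs the difference was -1.65, with the limit between the classes set at 10 kb from a start it was -1.73, and at an H3K27me3 threshold of 4 RPM it was -1.57. The smallest of the differences between animals came from Δ/D329A replicate 1, whose H3K4me3 over 455285 blocks of 5 kb outside runs had a median of 0.392 RPM, compared with 0.138 to 0.233 in the other 5 libraries.

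Among the members the mark followed the annotated starts. With a protein-coding start the median was 2.39 ± 0.09 RPM in +/+ (SD, n = 3), with a non-coding start 0.431 ± 0.059 and with none 0.277 ± 0.038. At least 1 RPM of H3K4me3 in +/+ was found in 68 of 99 members with a protein-coding start (68.7%), 56 of 177 with a non-coding start (31.6%) and 104 of 670 without a start (15.5%), against 67% of the runs at gene starts. Members with a CpG-rich window had 0.598 ± 0.016 RPM and those without one 0.190 ± 0.040. Both splits held in each of the +/+ libraries.

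**Figure D3:**
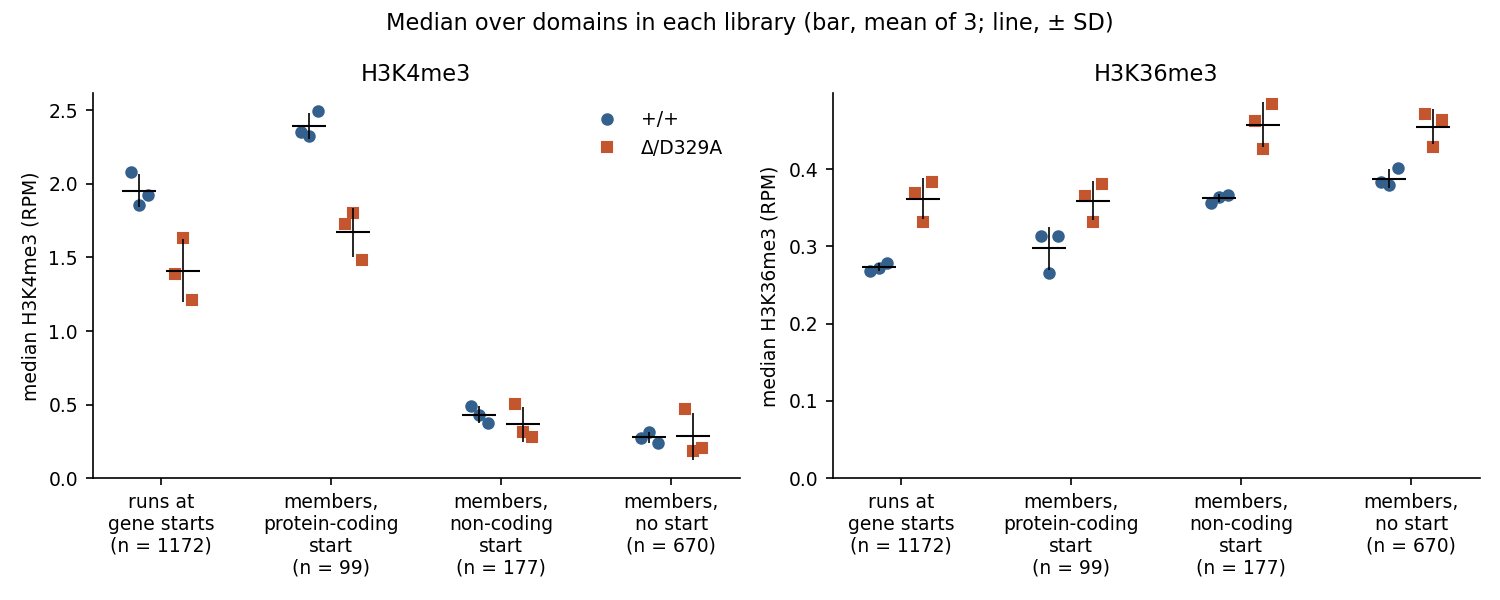
Median H3K4me3 (left) and H3K36me3 (right) in RPM over the runs at gene starts and over members with a protein-coding, a non-coding or no GENCODE M21 start, for each +/+ (circles) and Δ/D329A (squares) library, with the mean of 3 (bar) and ± SD (line). H3K4me3 of Δ/D329A lay under +/+ where a protein-coding start was present, and H3K36me3 of Δ/D329A lay above +/+ in all 4 sets.

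The highest H3K4me3 levels belonged to promoters that the gene table does not start from. The member chr2:26501001-26506000 at a second start of Notch1, the receptor of the Notch pathway, had 18.5, 15.4 and 17.2 RPM in +/+ and 13.5, 17.1 and 12.8 in Δ/D329A, with overlap. A member at a start of E130114P18Rik had a mean of 15.8 ± 2.4 RPM in +/+ (n = 3), one at a start of Cldn10, a claudin, 12.1 ± 0.7, and one in Sox2ot at 11 kb from Sox2, a factor of neural stem cells, 11.5 ± 2.8. The member at a start of Esr1, the estrogen receptor, chr10:4710001-4714000, had 10.2, 9.44 and 12.3 against 6.21, 9.28 and 13.3. Without any annotated start, the highest was chr4:22493001-22499000, at 4.6 kb from Pou3f2, a POU factor of neurons, with 8.01, 6.96 and 7.86 RPM in +/+ against 3.36, 6.06 and 5.64, and its CpG-rich core is the sequence printed above under its name.

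H3K36me3 was low in the members. The median was 0.364, 0.369 and 0.384 RPM in +/+ and 0.459, 0.415 and 0.459 in Δ/D329A, while blocks outside runs had medians of 0.576 to 0.616 and 0.614 to 0.621. Against the runs at gene starts, which had 0.273 RPM on average in +/+, members were higher in 6 of 6 animals, by 0.37 on the log2 scale (SD 0.08, two-sided exact sign permutation test p = 0.031). The sets were split by gene starts and also differ in CpG content, with a CpG-rich window in the top tile of 44.9% of members and 72.4% of runs at gene starts. They were thus unlike in advance, and the test shows only how steady the difference was over animals. Around a member the mean fell from 0.659 to 0.681 RPM at 20 kb before the centre to 0.384 to 0.390 at the centre in +/+. The 338 members without a CpG-rich window had more of the mark, 0.457 ± 0.011 RPM, than the 608 with one, 0.339 ± 0.011. The 275 members inside a gene of the table had 0.375 ± 0.023 RPM and the other 671 had 0.372 ± 0.007, within each other's spread.

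A few members had both marks at a sizeable level. The highest H3K36me3 was in chr8:71835001-71839000, at 48 kb from Zfp709, with 2.20, 2.10 and 1.62 RPM in +/+ and 1.72, 1.57 and 2.15 in Δ/D329A, beside 3.75 ± 0.48 RPM of H3K27me3. Soft-masked repeats made up 99.4% of its bases, and its input of 1.29, 1.53 and 1.37 RPM in +/+ and 1.62, 1.59 and 1.87 in Δ/D329A lay above the member medians of 0.901 to 0.959, and the part of this in the result was not tested. The member chr2:172535001-172543000 next to Tfap2c, an AP-2 factor, had 1.19, 1.35 and 1.23 against 1.25, 1.30 and 0.990. The genotypes overlapped in both. These values are averages over the tissue, and whether the marks lie on the same chromosomes was not tested.

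The genotypes were then compared in each member with limma on log2 of RPM plus 0.1, with p values adjusted by Benjamini-Hochberg over all 2118 autosomal runs and a call at an adjusted p under 0.05. H3K4me3 was called in 24 of 946 members, of which 23 were lower and 1 was higher in Δ/D329A. Over all runs 3.87% were called (3.59% lower and 0.283% higher), and 4.95% of the runs at gene starts, so that the share in members of 2.54% was below this background. Of the 24, 15 had no annotated start and 19 had at least 1 RPM in +/+. The count depended on scaling and on single libraries. It was 1, the higher call, after median centring or quantile normalization, 1, a lower call, without +/+ replicate 1, and 52 without Δ/D329A replicate 2.

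**Figure D4:**
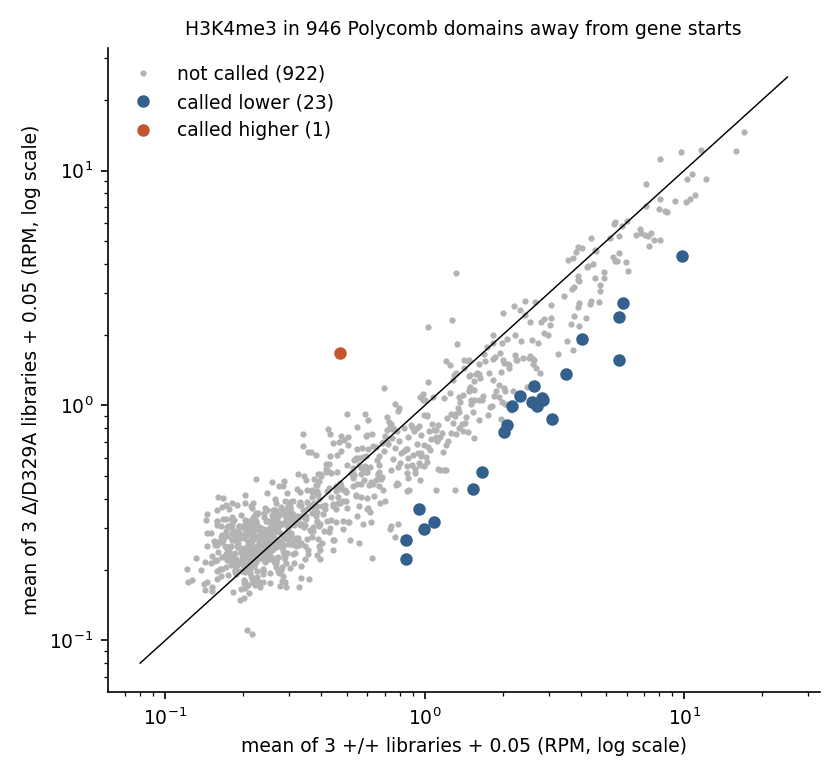
Mean H3K4me3 plus 0.05 (RPM, log scales) of the 3 +/+ (x axis) and 3 Δ/D329A libraries (y axis) for each of 946 members, with the line of equality. The 23 members called lower (blue) lie below the line at 0.79 RPM or more in +/+, and the 1 called higher (orange) lies above it.

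The size of the H3K4me3 difference in members that carry the mark depended on the scaling. Of 208 members with a mean of at least 1 RPM of H3K4me3 over the 6 libraries, 169 (81.3%) were lower in Δ/D329A, with a median log2 difference of -0.42, compared with 82.6% and -0.36 in the 759 runs at gene starts at this level. By the sign of the fitted difference, 177 of the 208 (85.1%) were below 0 without further scaling. After median centring it was below 0 in 112 of the 208 (53.8%) with a median of -0.04, and after quantile normalization in 109 (52.4%) with a median of -0.03. These scalings moved the median of all autosomal runs from -0.21 to 0.17 and 0.02. In the 99 members with a protein-coding start the median fell from 2.39 to 1.67 RPM without overlap between the libraries (exact permutation test p = 0.10, the smallest that 3 against 3 allow; 0.15 adjusted over 12 comparisons of medians). In the 670 without a start it was 0.277 ± 0.038 against 0.285 ± 0.159 RPM, with overlap (exact permutation test p = 1.0). Whether the genotype difference itself was unlike between members and runs at gene starts could not be shown (exact permutation test p = 0.70). All 3 Δ/D329A libraries lay below all 3 +/+ libraries in 130 members (13.7%), and in 20.5% of all runs.

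The member chr2:74128001-74132000, at 3.8 kb from Gm13667 and at a start of the non-coding Gm28640, had H3K4me3 of 5.35, 4.66 and 6.72 RPM in +/+ and 1.11, 1.87 and 1.57 in Δ/D329A (log2 difference -1.83 ± 0.28 (SE), limma adjusted p = 0.00945). In the same member H3K27me3 was 3.8, 3.30 and 3.47 against 6.23, 5.51 and 5.48, the largest rise of H3K27me3 of any member. In neither mark did the genotypes overlap.

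The opposite case was the single member called higher. It is chr14:122224001-122228000, in an intron of Clybl, a mitochondrial enzyme, and its CpG-rich core is the Clybl sequence printed above. H3K4me3 was 0.443, 0.443 and 0.372 RPM in +/+ and 1.30, 2.34 and 1.23 in Δ/D329A (log2 difference 1.67 ± 0.31 (SE), limma adjusted p = 0.0170). H3K27me3 there was 3.17, 3.08 and 3.11 against 2.87, 1.43 and 1.73, and Clybl RNA was 1.97 ± 0.50 log2 RPKM in +/+ (n = 5) and 2.34 ± 0.33 in Δ/D329A (n = 4), which was not called (limma adjusted p = 0.586). Without +/+ replicate 1 the adjusted p of the H3K4me3 difference was 0.0619.

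Values of 4 of the other members called lower follow. The member chr10:120548001-120558000, at 72 kb from Hmga2, had H3K4me3 of 0.942, 0.968 and 0.920 RPM in +/+ against 0.383, 0.210 and 0.151 (log2 difference -1.64 ± 0.33 (SE), limma adjusted p = 0.0212). At chr8:40283001-40290000, a start of Fgf20, a fibroblast growth factor, it was 0.843, 1.26 and 1.01 against 0.366, 0.237 and 0.204. In the body of Dlk1, an imprinted inhibitor of Notch signalling, and at a protein-coding GENCODE start of that gene, it was 1.39, 1.29 and 1.80 against 0.815, 0.0526 and 0.301. Dlk1 RNA was at 2.63 ± 0.27 and 2.59 ± 0.12 log2 RPKM. The member chr14:28509001-28514000 at a start of Wnt5a, a secreted Wnt ligand, had the highest level of those called, 10.3, 10.3 and 8.64 against 4.63, 4.95 and 3.24 (adjusted p = 0.0276). None of these groups overlapped.

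H3K36me3 was not called in any of the 946 members by limma, and in 0.0472% of all runs. At an unadjusted p under 0.05, 149 members were higher (15.8%, against 20.8% of all runs) and 5 lower (0.529%, against 0.472%). edgeR on whole reads, scaled on blocks outside runs, called 38 members, all higher (4.02%, against 9.96% of all runs), and DESeq2 called 0 of the 33 members that it gave an adjusted p, against 15.4% of all runs with one. The median log2 difference was 0.18 in members, 0.28 in runs at gene starts and 0.01 in blocks outside runs. All 3 Δ/D329A libraries lay above all 3 +/+ libraries in 196 members (20.7%) and in 27.3% of all runs, and the library medians of the members did not overlap (exact permutation test p = 0.10, the smallest possible). The highest blocks moved the other way, with a 99th percentile of 3.02 to 3.06 RPM in +/+ and 2.69 to 2.85 in Δ/D329A, and the part of this in the result was not tested.

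H3K27me3 cannot be tested between genotypes in the members, which were chosen for a high +/+ level. As a description, 646 members (68.3%) were lower in Δ/D329A, the median log2 difference was -0.08 and the 5th and 95th percentiles were -0.41 and 0.21. In 788 members (83.3%) the Δ/D329A mean was still 3 RPM or more. Found by the same rule on the Δ/D329A libraries, 1153 runs lay away from gene starts. They overlapped 676 members (71.5%), and 694 of them (60.2%) overlapped a member. The largest falls were in chr8:108695001-108702000 at a start of Zfhx3, a homeobox factor of the hypothalamus, in chr9:74871001-74875000 in Onecut1, in chr2:127482001-127487000 at a start of Kcnip3, in the Clybl region and next to Six3.

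For a test that does not favour a genotype, runs were found again on the mean of all 6 H3K27me3 libraries. Of the 2229 runs, 975 lay away from gene starts, and they overlapped 785 members (83.0%). limma called 58 of the 975, with 43 lower and 15 higher in Δ/D329A, compared with 9.15% of all 2229 runs (7.31% lower and 1.84% higher). The split depended on the tool and on single libraries, with 19 lower and 21 higher by edgeR, 56 lower and 43 higher without Δ/D329A replicate 2 and 44 lower and 4 higher without Δ/D329A replicate 3. The distal share of 5.95% was below that of the runs at gene starts, 11.6%. The median log2 difference of the 975 was -0.0044. Of the 43 called lower, 11 had a developmental regulator as the nearest gene, and of the 15 called higher 1, while 156 of all 975 did. When the blocks outside runs were put in the same fit, 5 were called.

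**Figure D5:**
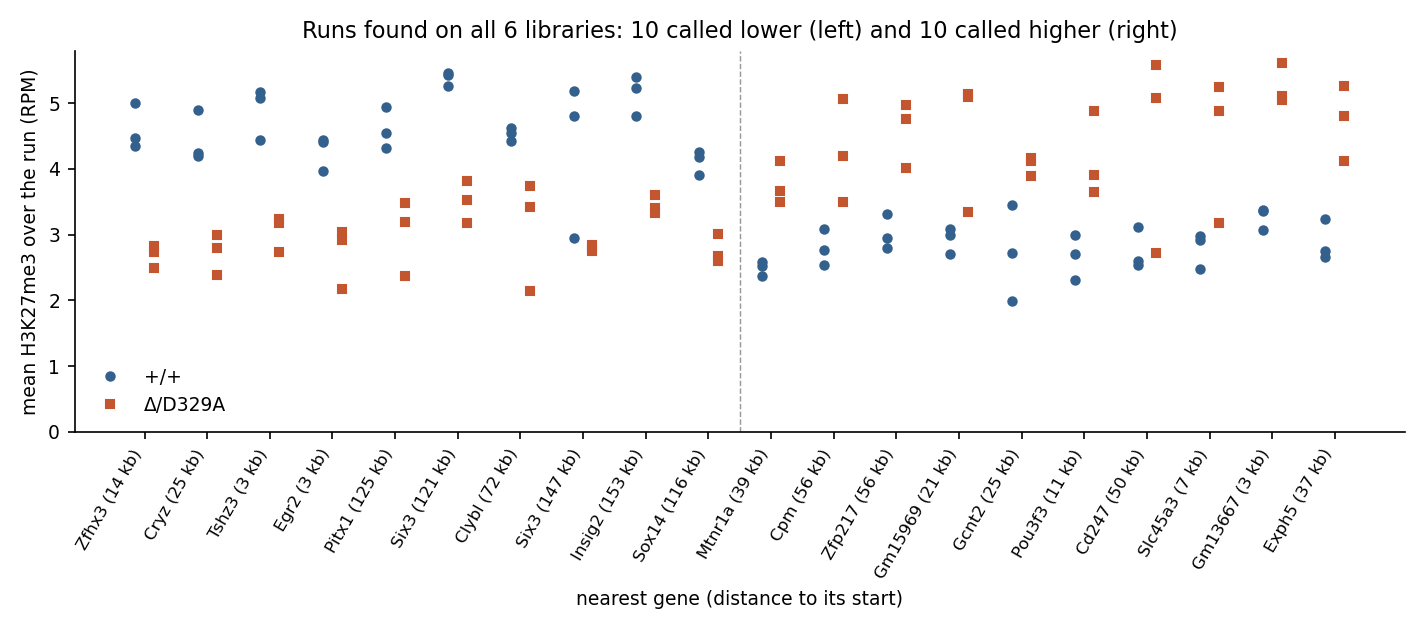
Mean H3K27me3 (RPM) of each +/+ (circles) and Δ/D329A (squares) library in 20 runs away from gene starts that were found on all 6 libraries and called by limma, the 10 with the largest fall left of the dashed line and the 10 with the largest rise right of it, labelled by the nearest gene and the distance to its start. At Zfhx3 the 3 +/+ values of 4.35 to 5.0 lie above the 3 Δ/D329A values of 2.49 to 2.82.

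The run with the largest fall, chr8:108695001-108701000 at 14 kb from the Zfhx3 start, had 5.0, 4.47 and 4.35 RPM in +/+ and 2.49, 2.82 and 2.73 in Δ/D329A (log2 difference -0.76 ± 0.15 (SE), limma adjusted p = 0.000349). Next to Tshz3, a zinc finger factor of neurons, it was 5.16, 4.44 and 5.07 against 3.18, 2.73 and 3.24. The run chr17:85480001-85493000, at 121 kb from Six3, a homeobox factor of the forebrain and hypothalamus, had 5.42, 5.46 and 5.26 against 3.81, 3.18 and 3.53 (-0.61 ± 0.12, adjusted p = 0.000233), and its core is the Six3 sequence printed above. A second run near Six3, a pair next to Cryz and runs near Egr2, Pitx1, Sox14, Sox1, Sp8, Vax1, Six6, Runx1 and Eomes fell too. So did runs near Insig2, Mapk15, Kcnrg, Tbca, Parp8, Tmem33, Abt1, Fbxo8, Faim, Nrf1 and Nfe2l3. Falls were thus not limited to runs with a listed developmental regulator as the nearest gene. Which gene a run belongs to was not tested. In each of the 3 cases with values above no Δ/D329A library reached a +/+ library.

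Most runs called higher were not members, since 13 of the 15 overlapped none and had 2.49 to 3.02 RPM in +/+. The rule favours this, because every tile of a member needed a +/+ mean of 3 RPM or more. One of the exceptions was the Gm13667 site described above, with 3.37, 3.06 and 3.36 RPM in +/+ against 5.61, 5.05 and 5.10 over the run found on all 6 libraries (log2 difference 0.67 ± 0.13, limma adjusted p = 0.000138). The largest rise was next to Exph5, with 3.24, 2.75 and 2.65 against 4.12, 4.80 and 5.25. Near Pou3f3, a POU factor of neurons, it was 2.71, 2.30 and 2.99 against 3.65, 3.91 and 4.87 (adjusted p = 0.00829). At Cd247 and Slc45a3 the values of Δ/D329A replicate 2, 2.72 and 3.17, lay far under those of the other 2 libraries, 5.08 and 5.57 at Cd247 and 5.24 and 4.87 at Slc45a3.

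The median level of genes next to members lay between that of all genes and that of genes at runs with a start. The 683 nearest genes had a median of -1.37 ± 0.25 log2 RPKM in +/+ (SD, n = 5), all genes -1.04 ± 0.20 and the genes at runs with a start -2.69 ± 0.18. The 223 genes with a member in their body had -2.45 ± 0.23. Of the 484 nearest genes that were tested with limma at an adjusted p under 0.01, 1 was called, Nr2e1, which was lower in Δ/D329A, compared with 0.107% of the 17839 genes tested (0.0224% lower). At an unadjusted p under 0.05 it was 47 of 484 nearest genes (9.71%) and 23 of 147 genes with a member in the body (15.6%), against 7.62% of all genes.

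Nr2e1 encodes a nuclear receptor of neural progenitors and adult neural stem cells. It was lower in all Δ/D329A libraries, with -0.39, -0.57, -0.17, -0.60 and -0.35 log2 RPKM in +/+ and -2.44, -1.70, -1.82 and -2.37 in Δ/D329A (log2 difference -1.66 ± 0.21 (SE), limma adjusted p = 0.00911), from 38 to 52 reads in +/+ and 8 to 14 in Δ/D329A. The call was lost when any 1 library was left out, although edgeR and DESeq2 on whole reads kept it. The member in its body, chr10:42563001-42568000, is 15.6 kb from its start in the table but only 828 bp from a protein-coding Nr2e1 start of GENCODE M21. It had H3K27me3 of 3.19, 3.54 and 2.78 RPM against 2.66, 2.39 and 3.01 and little H3K4me3, 0.0949, 0.216 and 0.0821 against 0.549, 0.276 and 0.177, with overlap in both marks.

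Other nearest genes were called by the count tools, and Scrg1 also by limma after median centring. edgeR called 6 of 389 (1.54%), adding Sfmbt2, Scrg1, Pdgfra, Plagl1 and H2-Q2 to Nr2e1, against 0.554% of all genes it tested, and DESeq2 called 11 of the 455 with an adjusted p (2.42%), against 1.59% of all genes with one. These shares were not tested against each other. Among these Sfmbt2, itself a Polycomb-group protein, was higher by 0.67 and Pdgfra, the receptor that marks oligodendrocyte precursors, was lower with a log2 difference of -0.57 (edgeR adjusted p = 0.00939 and 0.00729). En2, whose 31 kb member is described above, was called by DESeq2 and was higher by 2.21 on the log2 scale (DESeq2 adjusted p = 0.00150). Of the nearest genes called by DESeq2, 5 were higher and 6 lower. Nr2f2, Barhl2, Otx2, Prok2 and Rybp were not called by limma. Rybp had 1.95 ± 0.60 log2 RPKM in +/+ and 2.51 ± 0.14 in Δ/D329A. Over the list of Polycomb components, 0 of 32 genes were called in either direction by limma and 5 had an unadjusted p under 0.05, with log2 differences from -0.41 to 1.11.

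Pou4f1, Wt1, Tal1, Hoxa7, Hoxd8 and Lhx4 were also looked up, and each was nearest to 0 members. Lhx9, a LIM homeobox factor, was nearest to 1 member, and its RNA was at -0.99 ± 0.37 log2 RPKM in +/+ (n = 5) and 0.19 ± 0.61 in Δ/D329A (n = 4), which was called by DESeq2 (adjusted p = 0.000536) and not by limma (adjusted p = 0.277). Lhx4, of the same family, had 0, 0, 1, 0 and 1 reads in +/+ and 25, 21, 26 and 29 in Δ/D329A. A run found on all 6 libraries, chr1:155722001-155727000 at 15.1 kb from its start, had H3K27me3 of 3.93, 4.10 and 4.70 RPM in +/+ and 2.54, 3.34 and 3.29 in Δ/D329A (log2 difference -0.47 ± 0.15 (SE), limma adjusted p = 0.0389).

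As for the tissue, the 16 hypothalamic genes of the marker list were all tested and summed to 436 to 911 RPKM in +/+ and 495 to 716 in Δ/D329A, and none was called. The 3 cortical markers summed to 0.463 to 0.825 RPKM in +/+ and 0.948 to 1.21 in Δ/D329A, and the 2 of the choroid plexus to 0.479 to 1.76 and 1.73 to 4.11. The cortical sums did not overlap between the genotypes and those of the choroid plexus did, none of the genes was called by limma, and their part in the results was not tested. Dnmt3a was at 1.91 ± 0.16 log2 RPKM in +/+ and 1.63 ± 0.09 in Δ/D329A, which bears on the labels only in part because a point mutation is not seen in gene counts.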

How the data were processed

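ChIP-seq and RNA-seq values of the adult hypothalamus were used, and the bisulfite libraries were not analysed here. For ChIP-seq the authors trimmed reads, aligned them to GRCm38 and quantified 2 kb tiles every 1 kb in SeqMonk, and the deposited signal is reads per tile per 1000000 uniquely mapped reads, without input subtracted. Every value was a whole number of reads within 0.01. For RNA-seq the authors deposited log2 RPKM over merged exons, and 25943 of 25965 genes gave whole reads. Per the submitters' processing notes Trim Galore 0.4.3, Bowtie2 2.3.2 and HISAT2 2.0.5 were used. GEO's titles gave group and replicate. Members and gene lists were chosen with earlier results of these data known.

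Tile means per run, and expression at 0.1 RPKM or more in at least 4 libraries, were compared with limma 3.58.1 (trend, two-sided, Benjamini-Hochberg) in R 4.3.3. edgeR 4.0.16 and DESeq2 1.42.0 on recovered reads were alternatives. Medians were compared over animals with exact permutation tests. Blocks of 5 kb outside runs had input of at least 0.3 RPM. The fits were tested on simulated data. Named members were the 10 with most tiles, the 5 highest in H3K4me3 and in H3K36me3, the 5 farthest from a start, the 5 largest falls and rises of H3K27me3, up to 5 calls per direction, and those at called genes or with a printed sequence. The members at Wnt5a, Pou3f2 and 121 kb from Six3, and the runs set beside the H3K27me3 calls other than the 5 largest in each direction, were chosen after their values were seen. Starts are from GENCODE M21. Replicates are separate animals by the study's methods.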

Additional observations from a re-analysis of the deposited data

Results flagged for a closer look

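In the comparison of H3K4me3 between members and runs at gene starts, Δ/D329A replicate 1, at a log2 difference of -1.47, lay farther from the other 5 animals than the gap that chance gives in about 1 in 20 groups. Without it the mean difference was -2.60. Among the 5 +/+ RNA-seq libraries, the median of the genes with a member in their body was -2.04 log2 RPKM in 1 library, and it stood apart from the other 4 in the same way.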

How the results depend on the processing

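The number of members was 1999 and 295 at H3K27me3 thresholds of 2.5 and 4 RPM and 374 with at least 5 tiles. It was between 649 and 1008 without the input limit, at 5 or 10 kb from gene starts, on all 6 libraries or with runs 1 tile apart joined. For H3K4me3, 24 calls became 1 with median centring or quantile normalization (the higher one, with 0 lower), 2 with the batch block (libraries of high against low mitochondrial coverage), 39 with blocks outside runs in the fit, 9 with edgeR, 6 with DESeq2 and 5 with edgeR scaled over runs. Leaving out 1 replicate gave 1 to 52 calls, namely 1 (lower) without +/+ replicate 1, 6 without +/+ replicate 2, 12 without +/+ replicate 3, 7 without Δ/D329A replicate 3 and 52 without Δ/D329A replicate 2. For H3K36me3, 0 calls became 8 among members with at least 0.5 RPM, 38 with edgeR and 1 with edgeR scaled over runs, and stayed at 0 to 0 when a replicate was left out. For H3K27me3 in runs found on all 6 libraries, 58 calls became 34 with quantile normalization and 5 with blocks in the fit, and 24 to 99 when a replicate was left out (24 without +/+ replicate 1, 30 without +/+ replicate 3, 28 without Δ/D329A replicate 1 and 99 without Δ/D329A replicate 2). Among nearest genes 1 call became 0 at a limit of 0.5 RPKM, 6 with edgeR, 11 with DESeq2 and 0 to 0 when a library was left out. Median centring also gave 1 call, but of Scrg1. The cause of these changes was not tested. edgeR scaled over runs was added after seeing the data.

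No pairing of animals by replicate number is stated. Same-numbered deviations had correlations of -0.24 to 0.14, which cannot exclude a pairing with so few libraries. With the replicate block the calls were 43 for H3K4me3, 0 for H3K36me3, 80 for H3K27me3 and 0 for nearest genes. The differences of members from runs at gene starts kept their direction in every alternative tried, with log2 means of -2.60 to -2.34 for H3K4me3 and 0.35 to 0.39 for H3K36me3 when an animal was left out, where 5 animals cannot give an exact p under 0.05. None of the differences recomputed for 7 members called in H3K4me3, 10 runs called in H3K27me3 and Nr2e1 reversed under these alternatives, and the others named were not recomputed.

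Depth limits single members most for H3K4me3 and H3K36me3, at medians of 7.5 to 23.5 reads per library.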
